A study of Mus musculus with 3 samples.

Results

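The genes described here encode proteins that bind, release, oxidise or carry free actin, and they were picked by symbol for these roles: the cofilins Cfl1, Cfl2 and Dstn, the profilins Pfn1 and Pfn2, the β-thymosins Tmsb4x and Tmsb10, the actin importer Ipo9, the actin exporter Xpo6 and the actin-oxidising enzyme Mical2. All 10 were found among the 46603 deposited genes, and all 10 passed the minimum of 10 counts in every library. Their values came from poly(A) RNA-Seq, with 3 libraries of KO-actin cells. These are mouse embryonic fibroblasts (MEFs) that lack their own β-actin gene and were given back β-actin joined to a nuclear localization signal (NLS). Every library carried both the knockout and the NLS-tagged β-actin, so the series as analysed here held 1 condition, and the values are levels within KO-actin cells rather than changes against another cell line. The labels do not say whether the replicates are separate cultures, and the promoter that drove the tagged actin, the type of NLS and whether the line is 1 clone are not given in the sources used here.

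Actin shifts between filaments and single subunits. ADF/cofilins sever and disassemble filaments, profilins load free subunits with ATP and hand them to growing ends, and β-thymosins hold free subunits in reserve. Actin also moves in and out of the nucleus: importin 9 takes it in together with cofilin, exportin 6 takes it out bound to profilin, and MICAL-2 oxidises actin in the nucleus and thereby lowers the pool that holds back the transcription cofactor MRTF. In fibroblasts this cycle serves cell migration and contraction.

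The libraries held between 44383636 and 49932446 counts, and the 10 genes together took between 0.572% and 0.576% of them. Levels are given as CPM, the counts divided by the library size and multiplied by 1e6, after scaling by TMM, edgeR's trimmed mean of M-values, whose factors lay between 0.994 and 1.01. The order and the ratios of levels of different genes were taken as CPM per kilobase of annotated exon (CPM per kb), whereas CPM served for filters and to show the depth behind a gene. Actb, the target of the knockout and the source of the tagged protein, had 1078, 1114 and 1063 CPM in replicates 1, 2 and 3 (1085 ± 25.9, SD, n = 3). Counts per gene cannot tell RNA of tagged β-actin from RNA of the disrupted locus. Replicate 2 stood apart from the others: the common coefficient of variation between libraries beyond counting error was 5.25% with all 3 libraries and 3.03% without it, against 5.99% and 6.09% when replicate 1 or 3 was left out. Of the fibroblast markers, 8 of 10 reached 1 CPM, among them Vim (vimentin) with 4563 ± 238 CPM (SD, n = 3), while Lum (lumican) had 0 counts in every library, which allows at most 0.0671 CPM in the smallest library. The summed level of the 10 markers lay between 12201 and 13195 CPM. Of the striated muscle markers, 1 of 6 reached 1 CPM (Des, desmin, at 10.4 CPM), their sum lay between 9.48 and 11.1 CPM, and Myod1, Myog, Ckm and Myh3 were at 0 counts. Of the neuronal markers, 3 of 6 reached 1 CPM with a sum of 15.6 to 17.0 CPM, with Tubb3 at 11.0 CPM and Elavl4 at 0.0819 CPM. Of the blood and platelet markers, 1 of 6 reached 1 CPM with a sum of 6.07 to 7.55 CPM, where Itga2b had 6.30 CPM, while Ptprc and Pf4 had at most 1 count in any library. In bulk RNA a low level can come from few cells or from little RNA per cell, and these cannot be told apart.

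All 3 ADF/cofilins were present, with Cfl1 the highest and Cfl2 the lowest per length. Their activity is switched off when LIM kinases or the related TESK kinases phosphorylate a serine near the start of the protein, and that serine is the same codon position, codon 3, in all 3 genes. The first 30 coding bases are shown because they hold this regulatory site, with the serine codon in capitals:
Cfl1: atggccTCTggtgtggctgtctctgatggt
Cfl2: atggcaTCTggagttacagtgaatgatgaa
Dstn: atggccTCAggagttcaggttgcggatgaa
In GRCm38 each stretch is split by an intron after the start codon. The Cfl1 stretch lies on the plus strand at chr19:5490600-5490602 and chr19:5492497-5492523, the Cfl2 stretch on the minus strand at chr12:54862744-54862746 and chr12:54861807-54861833, and the Dstn stretch on the plus strand at chr2:143915645-143915647 and chr2:143938385-143938411. The serine codon is TCT in Cfl1 and Cfl2 and TCA in Dstn. Over the whole protein, Cfl1 and Cfl2 shared 135 of 166 residues (81.3%), Cfl1 and Dstn 117 of 166 aligned positions (70.5%), and Cfl2 and Dstn 114 (68.7%).

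Cfl1, the cofilin of non-muscle cells, had 118596, 115441 and 105359 counts in replicates 1, 2 and 3. As CPM these were 2376, 2343 and 2358, a mean of 2359 ± 16.8 CPM (SD, n = 3), and per kilobase it ranked 18 among the genes that passed the count minimum. The libraries differed by at most 1.01-fold, the narrowest range of the 10 genes. Dstn, which encodes destrin or ADF, a close relative with a stronger tendency to take filaments apart, had 749.7, 671 and 718 CPM, a mean of 713 ± 39.4 CPM. Replicate 2 was the lowest for Dstn. Cfl2, the form best known from muscle, had 89.6, 77.0 and 88.0 CPM, a mean of 84.9 ± 6.88 CPM. Replicate 2 was again the lowest, and the highest library exceeded it 1.16-fold, the widest range of the 10 genes.

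Per kilobase, Cfl1 made up 66.6%, 68.7% and 67.3% of the ADF/cofilin RNA in the 3 libraries, a mean of 67.5% ± 1.10 (SD, n = 3). Dstn followed with 30.3% ± 0.980 and Cfl2 with 2.11% ± 0.127. The ratio of Cfl1 to Cfl2, as CPM per kb, was 30.4, 34.9 and 30.8. No library changed the order of the 3 genes, and the choice of length moved the Cfl1 share only within 67.5% to 74.7%. Part of the Cfl1 mRNA is not unique. Of its windows of 50 bases, 23.0% also occurred in transcripts of 5 other genes, mainly Snx32, whose exons overlap 16.5% of the Cfl1 exonic length on the opposite strand, and the pseudogene Gm6180. These held few counts: 94 to 139 for Snx32 and 187 to 198 for Gm6180, or 0.106% and 0.170% of the Cfl1 counts. Gas2l3 shared 1 window with Cfl1 and had 2688 to 3276 counts. Whether counting used the strand, and how reads matching several genes were treated, are not given in the sources used here. What shared windows do to the level and share of Cfl1 was not tested.

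**Figure D1:**
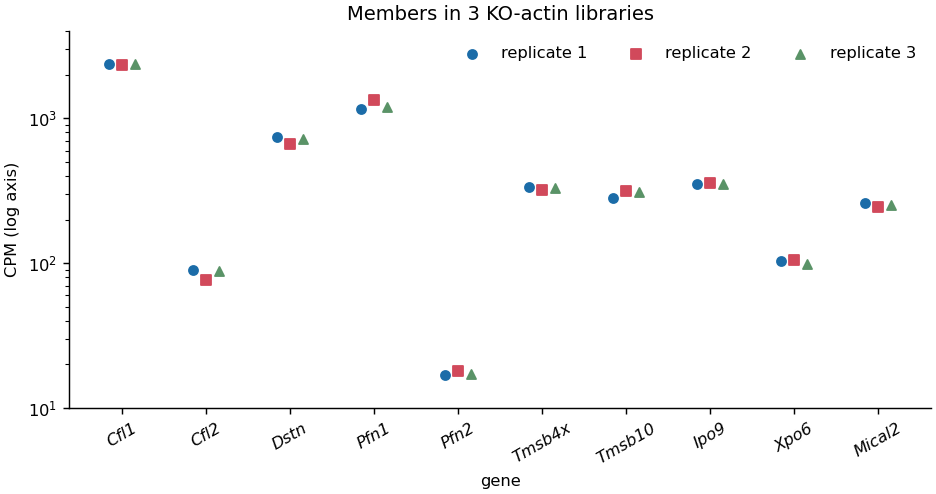
The vertical axis gives CPM, not divided by length, on a log scale for each of the 10 genes on the horizontal axis, with a symbol for each of the 3 KO-actin libraries. Mean CPM was 17.4 for Pfn2 and 2359 for Cfl1, and the highest and lowest library of a gene differ by 1.01-fold to 1.16-fold.

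Among the profilins, nearly all RNA came from Pfn1. Pfn1, the profilin of most tissues and the form that exportin 6 carries out with actin, had 1155, 1331 and 1202 CPM, a mean of 1229 ± 91.2 CPM (SD, n = 3). Replicate 2 was the highest and replicate 1 the lowest. Pfn2, the form enriched in the nervous system, had 849, 891 and 763 counts, or 17.0, 18.1 and 17.1 CPM, a mean of 17.4 ± 0.600 CPM. Its coefficient of variation of 3.45% was close to the 3.46% that counting error alone gives at this depth. Per kilobase, Pfn1 held 99.0%, 99.1% and 99.0% of the RNA of this pair, and the ratio of Pfn1 to Pfn2 was 99.9, 108 and 104. This ratio averaged 70.6 with coding length and 192 with the longest coding transcript. Their proteins are both 140 residues long and share 88 of them (62.9%). Pfn3 and Pfn4, known from testis, had 0 counts in every library, which allows at most 0.0671 CPM in the smallest library.

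Both β-thymosins were present at like levels, and with exonic length their ranges overlapped. Both proteins have 44 residues, of which 33 (75.0%) are the same. The coding stretch around the actin-binding motif is shown because this motif is a well-known actin contact of these small proteins, with the 6 codons of the motif, from codon 18, in capitals:
Tmsb4x: tcgaagTTGAAGAAAACAGAAACGcaagag
Tmsb10: gccaagCTGAAGAAAACCGAGACGcaggag
Both stretches are on the minus strand of GRCm38, at chrX:167207962-167207991 and chr6:72957938-72957967. Of the 6 codons of the motif 3 are spelled differently, and all 6 encode the same residues. Tmsb4x, thymosin β4, had 338, 320.1 and 329 CPM, a mean of 329 ± 9.17 CPM (SD, n = 3), with replicate 2 the lowest. Tmsb10, thymosin β10, had 282, 318 and 308 CPM, a mean of 303 ± 18.5 CPM, with replicate 2 the highest.

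Per kilobase, Tmsb4x had 247, 233 and 240 and Tmsb10 had 221, 249 and 242, so Tmsb4x was the higher in replicate 1 alone, and the ratio of Tmsb4x to Tmsb10 was 1.12, 0.938 and 0.993. The share of Tmsb4x was 50.3% ± 2.23 (SD, n = 3). Which gene was the higher depended on the length: Tmsb4x was above Tmsb10 in 3 of 3 libraries with coding length (ratio 1.46 ± 0.132) and below it in 3 of 3 with the longest coding transcript (0.872 ± 0.0788). The coding lengths were those of the longest annotated coding models, 150 and 201 bases, which are longer than the models of the proteins with 44 residues. With no division by length the ratio was 1.09 ± 0.0987. Of the 50-base windows of the Tmsb10 mRNA, 43.5% also occurred in 5 other genes, mainly Gm9844 (33.2%) and the pseudogene Gm3788 (10.3%). Gm9844 had 31 to 43 counts and Gm3788 had 14 to 31, or 0.241% and 0.138% of the Tmsb10 counts. No window of Tmsb4x was shared. The low counts of these partners do not show how many reads from the shared windows were left uncounted. What shared windows do to the level of Tmsb10 and to its ratio to Tmsb4x was not tested. The thymosin β15 genes were not detected at this depth: Tmsb15a, Tmsb15b1 and Tmsb15l had 0 counts in every library, and Tmsb15b2 had 1 count in replicate 3 alone.

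The carriers that move actin across the nuclear envelope were both present, and the importer was the higher. Ipo9 encodes importin 9, which also carries histones and other cargo. It had 352, 359 and 349.9 CPM, a mean of 354 ± 4.61 CPM (SD, n = 3), and after Cfl1 it had the narrowest range, with the highest library 1.03-fold above the lowest. Xpo6 encodes exportin 6, whose main known cargo is actin with profilin. It had 104, 106 and 98.8 CPM, a mean of 103 ± 3.68 CPM, and replicate 3 was the lowest. Per kilobase, the ratio of Ipo9 to Xpo6 was 6.96, 6.96 and 7.28, a mean of 7.07 ± 0.182. Ipo9 was above Xpo6 in 3 of 3 libraries, with an exact sign-flip permutation p of 0.25 (two-sided), the smallest that 3 libraries allow. The size of this ratio depended on the length: it was 3.72 with coding length and 2.51 with the longest coding transcript, because the annotated exons of Xpo6 add up to 16920 bases and its longest coding transcript to 4552. The direction was the same with each length.

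Mical2 had 259.7, 245 and 251 CPM, a mean of 252 ± 7.51 CPM (SD, n = 3), with replicate 2 the lowest. Per kilobase it was the highest of the 3 MICAL genes, with 16.5 ± 0.493 CPM per kb against 8.83 ± 0.264 for Mical1, which acts on actin in the cytoplasm, and 1.85 ± 0.0183 for Mical3, known for vesicle transport. Mical2 held 62.2%, 59.6% and 60.4% of the RNA of the family, a mean of 60.8% ± 1.30. Its share rose to 75.9% with coding length and 72.4% with no division by length, since the exons annotated for Mical2 add up to 15218 bases. That gene model reaches from 112225856 to 112413106 on chromosome 7 of GRCm38 and takes in a neighbouring gene that RefSeq lists separately as Micalcl. Whether the counts of Mical2 include reads from it was not tested.

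**Figure D2:**
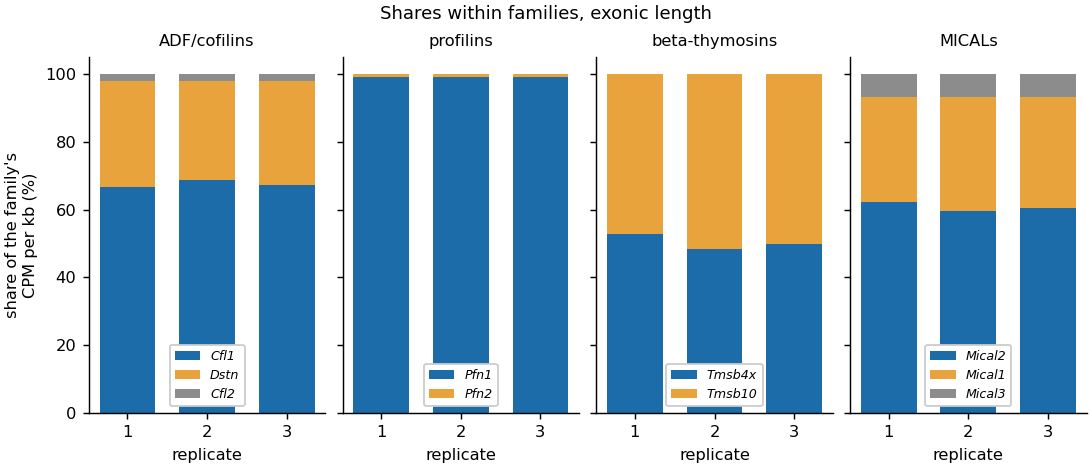
Stacked bars give, for each of the 3 libraries on the horizontal axis, the share of a family's CPM per kb (percent, exonic length) that each gene holds, with a panel for each family. Cfl1 takes 67.5% of the ADF/cofilins on average, Pfn1 takes 99.0% of the profilins, the β-thymosins divide almost evenly, and Mical2 takes 60.8% of the MICALs.

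Ordered by CPM per kb, the 10 genes ran from Cfl1 (829 ± 5.92, SD, n = 3) through Pfn1 (511 ± 37.9), Dstn (373 ± 20.6), Tmsb4x (240.0 ± 6.69), Tmsb10 (237 ± 14.5), Ipo9 (43.0 ± 0.559), Cfl2 (26.0 ± 2.11), Mical2 (16.5 ± 0.493) and Xpo6 (6.08 ± 0.217) to Pfn2 (4.91 ± 0.169). The 5 highest genes are the abundant monomer and filament binders, and a 5.52-fold step separated Tmsb10 from Ipo9. Of the 9 neighbouring pairs, 8 had ranges that did not overlap, and the exception was Tmsb4x with Tmsb10. The exact sign-flip permutation test gave p = 0.25 for each of those 8 pairs, adjusted p = 0.28 over the 9 pairs, and with 3 libraries no pair could pass. The order within the high group and within the low group changed with the length. With the longest coding transcript Pfn1 (1428 CPM per kb) was above Cfl1 (1002), and Tmsb4x overlapped Dstn instead. With coding length Tmsb10 overlapped Dstn, Cfl2 was above Ipo9, and Pfn2 was above Xpo6.

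**Figure D3:**
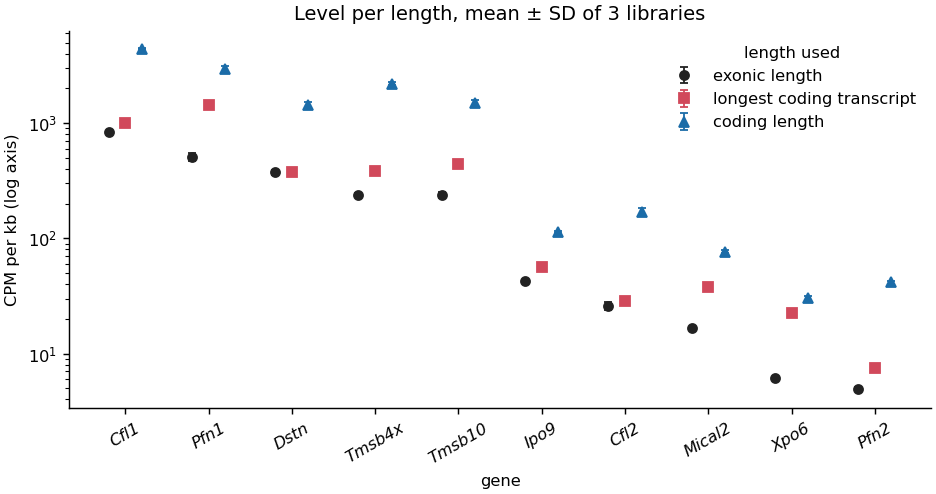
The vertical axis gives CPM per kb on a log scale, as the mean ± SD of the 3 libraries, for each gene on the horizontal axis under 3 definitions of length. Under each length the 5 genes at the left lie above the 5 at the right, whereas neighbours within these groups change places, such as Cfl1 (829 with exonic length) and Pfn1 (511).

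The genes nearest to Cfl1 in level over the 3 libraries, by Euclidean distance of log2 CPM per kb among 12081 protein-coding genes, were Rpl4 (747 CPM per kb, distance 0.27), S100a6 (930 CPM per kb, distance 0.29) and mt-Co1 (798 CPM per kb, distance 0.31). Rpl4 encodes a protein of the large ribosomal subunit, S100a6 a calcium-binding protein and mt-Co1 a mitochondrial subunit of cytochrome c oxidase. This measure reads mainly the level, since the 3 libraries are of 1 condition.

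Set against the actins themselves, the summed RNA of the cofilins, profilins and thymosins was lower with exonic length and slightly higher with coding length. Of the 6 actin genes, Acta2, the smooth muscle actin that contractile fibroblasts also make, was the highest with 3008 ± 41.5 CPM per kb (SD, n = 3). Actg1, cytoplasmic γ-actin, followed with 1868 ± 90.6 and Actb with 405 ± 9.68. Actg2, the enteric smooth muscle actin, had 62.4 ± 1.03 CPM per kb and Acta1, the skeletal muscle actin, had 1.57 ± 0.215. Actc1, the cardiac actin, had 1 count in replicate 3 and none in the others. The 7 monomer and filament binders together reached 0.407, 0.414 and 0.427 of the summed CPM per kb of the actins. The ADF/cofilins contributed 0.230, the profilins 0.0966 and the β-thymosins 0.0893 to the mean of 0.416 ± 0.0103. The order of these parts depended on the length: with coding length the β-thymosins (0.327) were above the profilins (0.263). With the longest coding transcript the means of the profilins (0.223) and the ADF/cofilins (0.218) were close. There the profilins were above the ADF/cofilins in replicate 2 alone (0.239 against 0.211). They were below them in replicate 1 (0.206 against 0.219) and in replicate 3 (0.2250 against 0.2255). Cfl1 alone was above Actb in 3 of 3 libraries, with a ratio of 2.05 ± 0.0588, and Pfn1 was above Actb in 3 of 3, with 1.26 ± 0.0692, each with an exact sign-flip permutation p of 0.25. With coding length these ratios were 4.58 and 3.03, and with the longest coding transcript 1.77 and 2.53. The ratio of binders to actins depended on the length and was 1.12 with coding length. It was 0.639 when Actg1 was left out, a rise that removing a part of the actin sum must give. Of the windows of 50 bases, 56.7% of those of Actg1 and 14.2% of those of Actb are shared with other genes. What shared windows do to the ratio was not tested.

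Differences between the libraries were tested next, to see how far these levels repeat. For each gene the counts were compared with those expected from the library sizes by a chi-square test (2 degrees of freedom), adjusted by Benjamini-Hochberg over all 13814 genes with 10 counts or more in each library. The test compares 3 libraries of 1 condition with counting error, so a call says only that the libraries differ. It called 6063 genes, 43.9% of those tested. It called 8 of the 10 genes described here. Among the 8113 genes with a mean CPM at or above that of Pfn2, the member with the fewest counts, 58.4% were called. The share called rose with depth, from 34.6% at a minimum of 1 count in every library to 52.0% at 100 counts. These shares were not matched in depth to the 10 genes, whose median level was 316 CPM, or to the gene lists described below. Calls with replicate 2 as the highest library made up 20.3% of all genes tested and calls with it as the lowest 17.4%. Of the 10 genes, Pfn1, Tmsb10 and Xpo6 were called with replicate 2 highest, and Cfl1, Cfl2, Dstn, Tmsb4x and Mical2 with replicate 2 lowest. Ipo9 (adjusted p = 0.109) and Pfn2 (adjusted p = 0.467) were not called.

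The differences were small. The highest library exceeded the lowest by a median of 1.07-fold over the 10 genes, 1.11-fold over all genes tested and 1.08-fold over the genes at or above the level of Pfn2. Cfl1 was called at a range of 1.01-fold (adjusted p = 0.00830), since its depth left a counting error of 0.297%. Pfn1 had the smallest adjusted p of the 10 (1.5e-142) at a range of 1.15-fold, followed by Dstn (1.8e-45) at 1.12-fold and Tmsb10 (2.6e-23) at 1.13-fold.

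Replicate 2 differed from the others along the GC content of the transcripts. On the log2 scale its CPM minus the mean of replicates 1 and 3 ran from a median of -0.19 in the bin of genes with the lowest GC content to 0.20 in the bin with the highest. For 8 of the 10 genes the deviation of replicate 2 had the sign of the median of its own bin, as it did for 72.4% of all genes tested and 79.6% of those at or above the level of Pfn2. Cfl2, with a GC content of 36.9%, deviated by -0.21 where its bin had -0.19, and Tmsb10, with 58.7%, deviated by 0.11 where its bin had 0.12. Pfn1 went further than its bin, with 0.18 against 0.07, and so did Dstn, with -0.13 against -0.05. Cfl1 (-0.02 against 0.02) and Mical2 (-0.06 against 0.03) had the opposite sign. When the expected counts were set within 50 bins of GC content, 28.9% of 13770 genes and 5 of the 10 were called, namely Cfl1, Dstn, Pfn1, Tmsb10 and Mical2. Without replicate 2, 12.9% of all genes and 3 of the 10 were called, namely Dstn, Pfn1 and Tmsb10. Without replicate 1, 33.4% of all genes and 5 of the 10 were called. With the common dispersion of all genes added to counting error, 0.731% of all genes and none of the 10 were called. This dispersion was estimated from the same libraries, so it takes in the spread under test and few calls were bound to remain. What set replicate 2 apart was not tested.

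**Figure D4:**
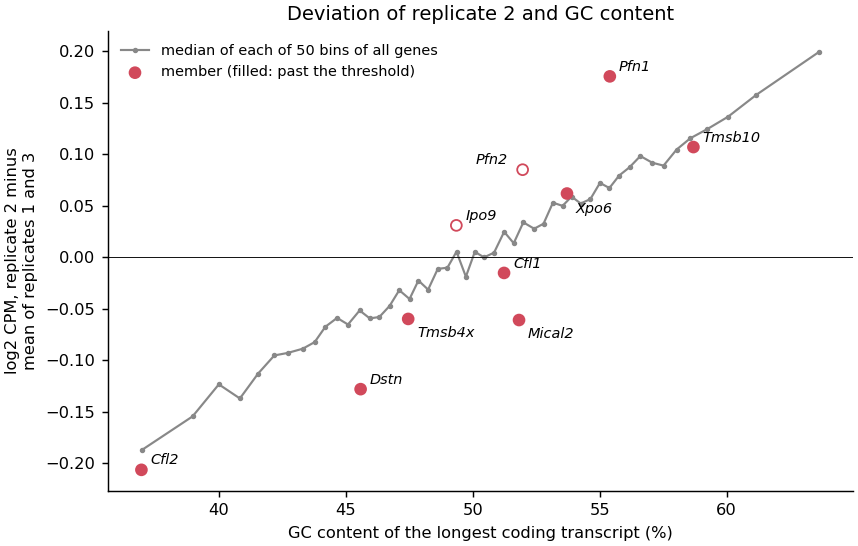
The horizontal axis gives the GC content of the longest coding transcript (percent) and the vertical axis the log2 CPM of replicate 2 minus the mean of replicates 1 and 3. The line joins the medians of 50 bins of all genes, which climb from -0.19 to 0.20, and the points are the 10 genes, filled where the chi-square test called them: Cfl2 and Tmsb10 lie near the line, Pfn1 above it, and Dstn and Mical2 below it.

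The genes known to regulate cofilin were present at moderate levels. The list held LIM and TES kinases, which switch cofilin off, the PAK and ROCK kinases that act on LIM kinases, and the slingshot phosphatases, which switch cofilin on again. Of its 12 genes 11 were matched, and all 11 had at least 1 CPM, between 28.2 and 182 CPM. Pdxp, which encodes the cofilin phosphatase chronophin, was the gene not matched, so its level is not described. Pak2 had the highest level per length, with 23.6 ± 0.968 CPM per kb (SD, n = 3), before Pak1 with 15.5 ± 0.887 and Rock2 with 13.1 ± 0.773. The phosphatase genes Ssh2, with 1.86 ± 0.0723 CPM per kb, and Ssh1, with 3.76 ± 0.0780, were the lowest. The chi-square test called 8 of the 11, against 43.9% of all genes and 58.4% of those at or above the level of Pfn2. Of the 11 genes, 2 were called with replicate 2 highest and 5 with it lowest, against 20.3% and 17.4% of all genes tested.

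Of the 16 genes of filament disassembly and monomer handling that work beside cofilin, 13 had at least 1 CPM. The 3 highest per length were Cap1, whose protein speeds the recycling of cofilin-bound actin, with 191 ± 4.29 CPM per kb, Gsn, the severing protein gelsolin, with 148 ± 6.14, and Coro1b, a coronin of the cell edge, with 112 ± 5.17. Wdr1, a cofilin cofactor, had the most CPM of the list (893 ± 23.5). Its annotated exons add up to 8899 bases, and it had 100 ± 2.64 CPM per kb. Other lengths were not tried for this list, the cofilin regulators or the nuclear transport genes. Scin had 0 counts in every library, Gmfg had at most 1 count and Vil1 had 3 or 4 counts. Scin and Vil1 encode gelsolin relatives, scinderin and villin. The test called 10 of the 13 genes tested, against 43.9% of all genes and 58.4% of those at or above the level of Pfn2. Of the 13, 5 were called with replicate 2 highest (20.3% of all genes tested) and 4 with it lowest (17.4%).

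Nuclear transport genes other than Ipo9 and Xpo6 were widely present: 26 of 27 had at least 1 CPM. Ran, the GTPase that gives transport its direction, had 413 ± 10.6 CPM per kb, its cofactor Ranbp1 had 252 ± 8.12 and the importin Kpnb1 had 165 ± 3.82. Ipo9, at 43.0, and Xpo6, at 6.08 CPM per kb, lay below these 3. Ipo8 had 3.49 ± 0.223 CPM per kb, and Kpna7, known from the egg and early embryo, had at most 2 counts in any library. Of the 26 genes tested 21 were called, against 43.9% of all genes and 58.4% of those at or above the level of Pfn2. Of the 26, 16 were called with replicate 2 lowest (17.4% of all genes tested) and 4 with it highest (20.3%). The median GC content of the 26 was 46.3%, against 50.2% for all genes tested and 51.5% for the 10 genes of actin turnover. The parts of GC content and of depth in these calls were not tested.

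**Figure D5:**
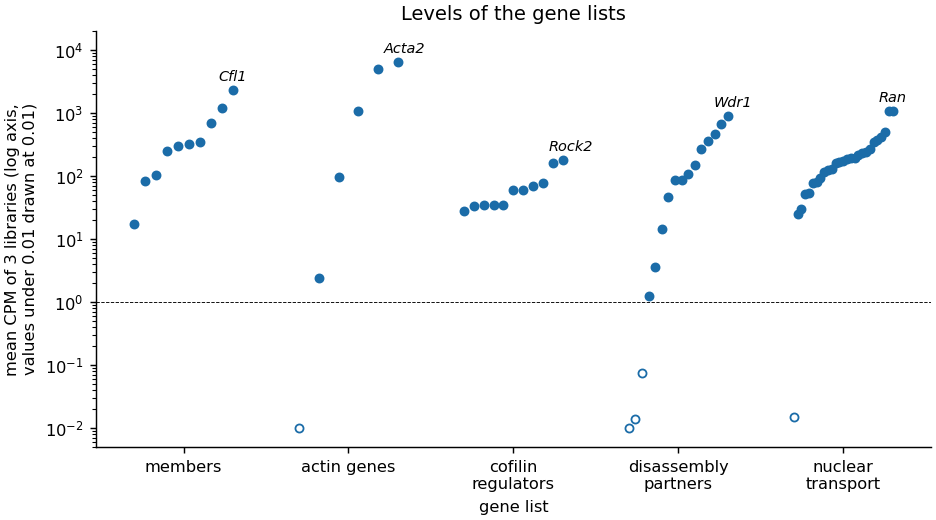
Each point is a gene, placed on the vertical axis by its mean CPM over the 3 libraries on a log scale (values under 0.01 are drawn at 0.01) and on the horizontal axis by its list, sorted within the list, with the gene of most CPM named; CPM is not divided by length. Filled points reach the dashed line at 1 CPM, as do all 10 genes described here, all 11 cofilin regulators, 13 of 16 disassembly partners and 26 of 27 nuclear transport genes.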

How the data were processed

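Poly(A) RNA-Seq libraries of KO-actin cells, 3 in number, were analysed. For each, the authors deposited raw, unnormalized read counts by Ensembl gene; totals lay between 44383636 and 49932446. The submitters' processing notes name Trimmomatic, FastQC, HISAT2, HTSeq, mm10 and GRCm38; versions, the annotation release, the strand setting, the treatment of reads matching several genes and the read length are not given in the sources used here. Symbols were matched by identifier for 46005 of 46603 genes. Library sizes were scaled by TMM (edgeR 4.0.16, R 4.3.3), with total counts and DESeq2 1.42.0 size factors as alternatives. Exonic length, coding length, transcript length and GC content came from GENCODE M21 on GRCm38. Coding models joined over a gap under 20 bases were left out. Levels, shares and tests used scipy 1.17.1, pandas 2.3.3 and numpy 2.4.6 in Python 3.11.15, coding sequences were translated and aligned with Biopython 1.88, and figures were drawn with matplotlib 3.10.9. Promoters came from RefSeq (GRCm38.p6).

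A count of 0 was taken to allow up to 3 counts, a floor for counting error only. p-values measure the spread between these libraries, which may be technical. The genes and lists were chosen with earlier results of these data known. Named were all 10 genes, their relatives, the 6 actin genes, of each pathway list the 3 highest and 2 lowest per kilobase and genes not above 3 counts in every library, of each marker list the highest and lowest and those at 3 counts or fewer, genes that share windows of 50 bases with a member and have at least 10 counts in every library, and the 3 genes nearest in level to the highest member. Named besides were Wdr1, for the most CPM among the disassembly partners, and Pdxp, the cofilin regulator that was not matched.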

Additional observations from a re-analysis of the deposited data

How the results depend on the processing

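Of 125 alternative values, 98 kept within 1 SD of the reported value, or within 1.5-fold for counts, including all 50 for the mean CPM of the 10 genes, which changed by at most 4.65%. Leaving 1 of 3 libraries out cannot move a mean by 1 SD, so those alternatives for levels, shares and ratios could not fail. Calls of variation between libraries moved from 6063 genes and 8 of the 10 to 3985 and 5 with 50 GC bins. They moved to 101 and 0 with the common dispersion, which was estimated from these same libraries. In an alternative chosen after seeing the data, they moved to 1691 and 3 with GC bins and without replicate 2. Leaving out 1 replicate gave 1786 to 4804 genes and 3 to 7 of the 10; without replicate 2 it was 1786 and 3, and without replicate 1 it was 4607 and 5. In place of exonic length, the settings no division by length, coding length and longest coding transcript (the last chosen after seeing the data) gave in turn 74.7%, 73.3% and 71.4% for the Cfl1 share, 98.6%, 98.6% and 99.5% for the Pfn1 share, 52.1%, 59.3% and 46.5% for the Tmsb4x share and 72.4%, 75.9% and 65.8% for the Mical2 share. The ratio of Ipo9 to Xpo6 became 3.44, 3.72 and 2.51, and that of binders to actins 0.395, 1.12 and 0.569; these shifts follow from the lengths used. Without Actg1 the ratio of binders to actins was 0.639, a rise that removing a part of the actin sum must give. Leaving out a replicate gave 66.9% to 68.0% for Cfl1, 99.0% to 99.1% for Pfn1, 49.1% to 51.3% for Tmsb4x, 60.0% to 61.3% for Mical2, 6.96 to 7.12 for Ipo9 to Xpo6 and 0.410 to 0.420 for binders to actins. Pairs without overlap were 8 or 9 of 9 throughout. No paired analysis was possible because the libraries form 1 condition. Depth limits Pfn2, whose spread was near counting error, and the genes at 3 counts or fewer.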

Other observations

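The promoters of the 10 genes, taken from 250 bases before to 50 after a RefSeq start, were compared with those of 27025 genes as a description, with both strands searched. The 27025 genes were not limited to those detected here. For a gene with several promoters, a match in any of them counted and the highest GC content was taken. The letters GGGCGG, the core of a GC box, occurred in 9 of 10, all but Mical2, against 38.2% of all genes. CCAAT occurred in 5 of 10 (Cfl1, Cfl2, Ipo9, Xpo6 and Mical2) against 41.1%. TATAAA occurred in none of the 10 against 15.7% of all genes, and in the actin genes Acta1 and Actc1. The CArG box, the letters known for binding serum response factor, the partner of MRTF, occurred in none of the 10 within this window against 1.81% of all genes, and in Actg1, Acta1 and Actc1. Only exact matches to the letters were counted. Whether promoters of Actb, Acta2 and Actg2 were among those searched was not recorded, so no absence of a motif can be read for these genes. The GC content of the promoter was above the median of all genes (53.3%) in 9 of the 10, from 54.7% for Cfl1 to 77.7% for Pfn2, and was 52.7% for Tmsb4x. These letter matches and base compositions were not tested against the levels.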
